A study of Rattus norvegicus with 4 samples.

Results

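This account concerns 9 genes that regulate or restrain T cells, Foxp3, Il2ra, Ctla4, Ikzf2, Icos, Tigit, Pdcd1, Lag3 and Tnfrsf18, in blood of rats, measured by single-cell RNA-seq in droplets. They were taken by symbol from the 25340 genes of the deposited count tables. Their UMIs (unique molecular identifiers, 1 per captured RNA molecule) were summed over cell classes gated by a few genes each and scaled to the total of the class as CPM. Where 4 values follow each other they stand for the libraries Sham, SCI, MSC-i.t, MSC-i.v, always in that order. The study treated rat spinal cord injury, made by Allen's weight-drop method, with umbilical cord mesenchymal stromal cells (MSC). Blood was sequenced as 1 library each for Sham, SCI (injury without cells), MSC-i.t (intrathecal, 10000000 cells per kg) and MSC-i.v (intravenous, 30000000 cells per kg). Cells were given at 72 hours and again at 7 days, in a design of 40 rats with 10 per group. The doses differ between the routes, so MSC-i.t and MSC-i.v differ in dose as well as route. The design text speaks of all rats as injured and does not describe the sham operation. Strain, sex, age, the number of rats behind each library and the time of blood sampling are not given in the sources used here, and the deposited name of the SCI library carries another time tag than the 3 others.

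Foxp3 is the transcription factor that defines regulatory T cells, which hold other immune cells in check. Il2ra (CD25) is the high-affinity chain of the interleukin-2 receptor, on which regulatory T cells depend, and Ikzf2 (Helios) is a transcription factor found in many of them. Ctla4, Pdcd1 (PD-1), Tigit and Lag3 are inhibitory receptors, the immune checkpoints. Icos and Tnfrsf18 (GITR) are co-stimulatory receptors that activated and regulatory T cells carry.

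RefSeq promoter sequences of assembly GRCr8 were at hand for 7 of the 9 genes, Lag3 and Tnfrsf18 being the others. Ctla4, Icos, Ikzf2 and Pdcd1 lie on chromosome 9, Foxp3 on the X chromosome, Il2ra on 17 and Tigit on 11. The 250 bases before the listed start of 4 genes are shown, 5′ to 3′ on the strand of the gene, because Foxp3 defines the regulatory class below and the other 3 had the largest fold differences between that class and other T cells. Capitals mark the letters TATAAA or, on the other strand, TTTATA, the core of a TATA box. The Foxp3 sequence is chrX:17595701-17595950 (minus strand), Il2ra chr17:71808476-71808725 (minus), Ctla4 chr9:69813171-69813420 (plus) and Ikzf2 chr9:78640360-78640609 (minus).
Foxp3: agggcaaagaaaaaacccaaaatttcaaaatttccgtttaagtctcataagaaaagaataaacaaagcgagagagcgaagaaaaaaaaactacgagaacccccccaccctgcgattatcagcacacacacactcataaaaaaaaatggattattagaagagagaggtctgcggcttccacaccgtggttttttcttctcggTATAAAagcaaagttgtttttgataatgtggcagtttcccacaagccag
Il2ra: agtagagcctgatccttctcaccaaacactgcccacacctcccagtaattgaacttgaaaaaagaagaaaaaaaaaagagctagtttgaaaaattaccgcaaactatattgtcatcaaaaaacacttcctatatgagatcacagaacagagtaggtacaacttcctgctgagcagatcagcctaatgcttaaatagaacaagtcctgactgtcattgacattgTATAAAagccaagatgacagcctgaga
Ctla4: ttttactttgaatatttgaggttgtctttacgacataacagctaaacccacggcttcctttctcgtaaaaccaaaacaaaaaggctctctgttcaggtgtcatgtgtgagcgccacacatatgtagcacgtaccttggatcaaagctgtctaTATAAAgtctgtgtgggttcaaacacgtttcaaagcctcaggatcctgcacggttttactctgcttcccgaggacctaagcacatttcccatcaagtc
Ikzf2: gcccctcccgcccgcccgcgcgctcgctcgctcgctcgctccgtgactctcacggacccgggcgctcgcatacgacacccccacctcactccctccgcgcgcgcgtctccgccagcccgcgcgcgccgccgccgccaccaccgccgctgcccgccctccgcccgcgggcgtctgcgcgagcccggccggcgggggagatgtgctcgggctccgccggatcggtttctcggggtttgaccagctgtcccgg

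TATAAA was found once in each of the Foxp3, Il2ra and Ctla4 sequences, its first base 49, 27 and 98 bases before the start. The Icos window (chr9:69877549-69877798, plus strand) held it only on the other strand, as TTTATA, 216 bases before the start. Neither form was found in Ikzf2, Tigit (chr11:70534657-70534906, plus) or Pdcd1 (chr9:101879271-101879520, minus). Of 33469 promoter windows of the same length, 12.9% hold either form. The letters TGTTTAC (bound by forkhead factors, the family of Foxp3), GGAAAA (NFAT) and TTCNNNGAA (STAT), searched on both strands, matched in none of the 7 windows, and match in 3.21%, 21.6% and 7.67% of all windows. The Ikzf2 window stands apart by its base composition, with 79.2% G and C against 38.4% to 59.6% in the 6 others. These matches describe letters only, and TATAAA was chosen for the search after the sequences had been seen.

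Barcodes with at least 500 UMIs and 200 genes were kept, 8527 to 16998 per library with medians of 3764 (MSC-i.v) to 5719 UMIs (SCI), and 28 to 51 kept barcodes were shared by a pair of libraries. T cells had at least 2 UMIs of Cd3e, Cd3d and Cd3g and numbered 28899, of which 648 with a Foxp3 UMI are called Foxp3 T, 8736 without one and with at least 2 UMIs of Cd8a and Cd8b are called CD8 T, and the remaining 19515 are called other T. The NK class held 716 cells and the monocyte class 2418. Markers that the gates did not use followed them: Cd4 stood at 30.6 to 38.6 CPM in Foxp3 T, 32.0 to 41.4 in other T and 3.35 to 5.04 in CD8 T, and Nkg7 at 2874 to 2999 CPM in NK. The 4 NK sums held no Cd4 UMI. Other T can hold regulatory cells whose Foxp3 RNA was not captured. The SCI library stood apart across the genome: the SD of log2 ratios over all T cell genes was 0.64 to 0.71 in pairs with SCI and 0.34 to 0.42 in pairs without it, and Klf2 was 3.61 higher in SCI than in Sham on the log2 scale. With 1 library per group no difference between groups was tested, and intervals cover counting error only. In sums over cells, fewer cells of a type and less RNA per cell cannot be told apart.

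Foxp3 was found in a small share of T cells, lowest in the SCI library. A Foxp3 UMI was found in 163 of 6111 T cells in Sham (2.67%, exact Clopper-Pearson 95% interval 2.28 to 3.10). SCI had 100 of 5889 (1.70%, 1.38 to 2.06), MSC-i.t 159 of 7593 (2.09%, 1.78 to 2.44) and MSC-i.v 226 of 9306 (2.43%, 2.13 to 2.76). The SCI interval lay below those of Sham and MSC-i.v and overlapped that of MSC-i.t. Background was lower. The B cell gate, whose cells should lack Foxp3, had a UMI in at most 0.147% of its cells. Median depth was 2038 to 3194 UMIs there, against 3896 to 6042 in T cells. NK held none, which allows up to 4.33 CPM in SCI, the library with the highest such limit.

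Depth differs between the libraries, so each T cell was also thinned to 2000 UMIs, leaving out shallower cells. Thinned alike, a Foxp3 UMI remained in at most 0.130% of B cells (Sham), 0.237% of monocytes (Sham) and 0.208% of hemoglobin-rich barcodes (SCI). The share of T cells was then 1.39%, 0.791%, 1.03% and 1.35%. SCI over Sham was -0.65 (95% interval -1.03 to -0.28) on the log2 scale unthinned and -0.82 (-1.38 to -0.28) thinned. MSC-i.v over SCI was 0.52 (0.17 to 0.87) and 0.78 (0.27 to 1.31). MSC-i.t over SCI was 0.30 (-0.07 to 0.68), an interval that includes no difference. Where a cell needed 2 Foxp3 UMIs, the shares were 0.982%, 0.662%, 0.856% and 0.709%, and MSC-i.v over SCI shrank to 0.10.

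**Figure D1:**
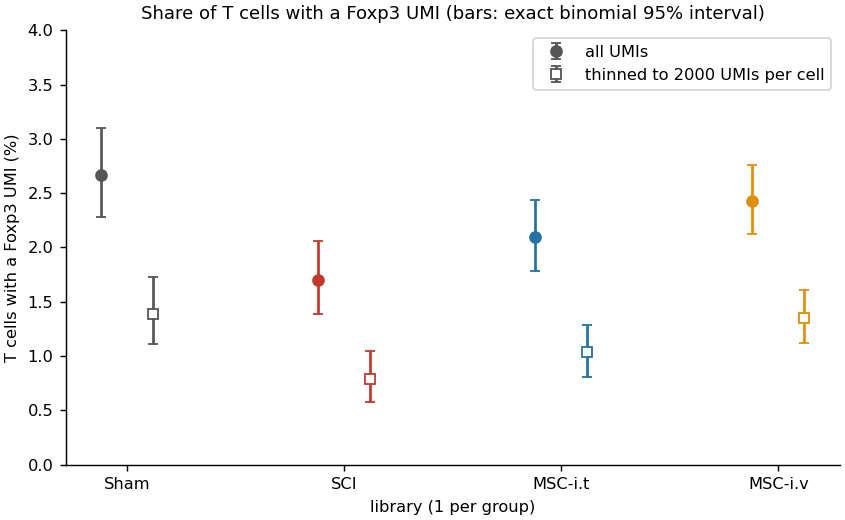
Percent of T cells (y axis) with a Foxp3 UMI in each of the 4 libraries (x axis), 1 per group, from all UMIs (circles) and after thinning to 2000 UMIs per cell (squares), with exact binomial 95% intervals. SCI is lowest in both, at 1.70% and 0.791%.

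Within Foxp3 T, the level of Foxp3 itself is set in part by the gate, and was alike in the libraries at 254, 239, 245 and 260.1 CPM. Median depth of Foxp3 T was 4982, 5544.5, 5343 and 4264 UMIs, against 4805, 5561, 5293 and 3575 in other T. Some Foxp3 T also passed the Cd8 gate: 28, 15, 34 and 27 cells. Platelet RNA was present in Foxp3 T, with Pf4 at 146 to 414 CPM against 66.6 to 189 in other T, and its part in the values of Foxp3 T was not tested.

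**Figure D2:**
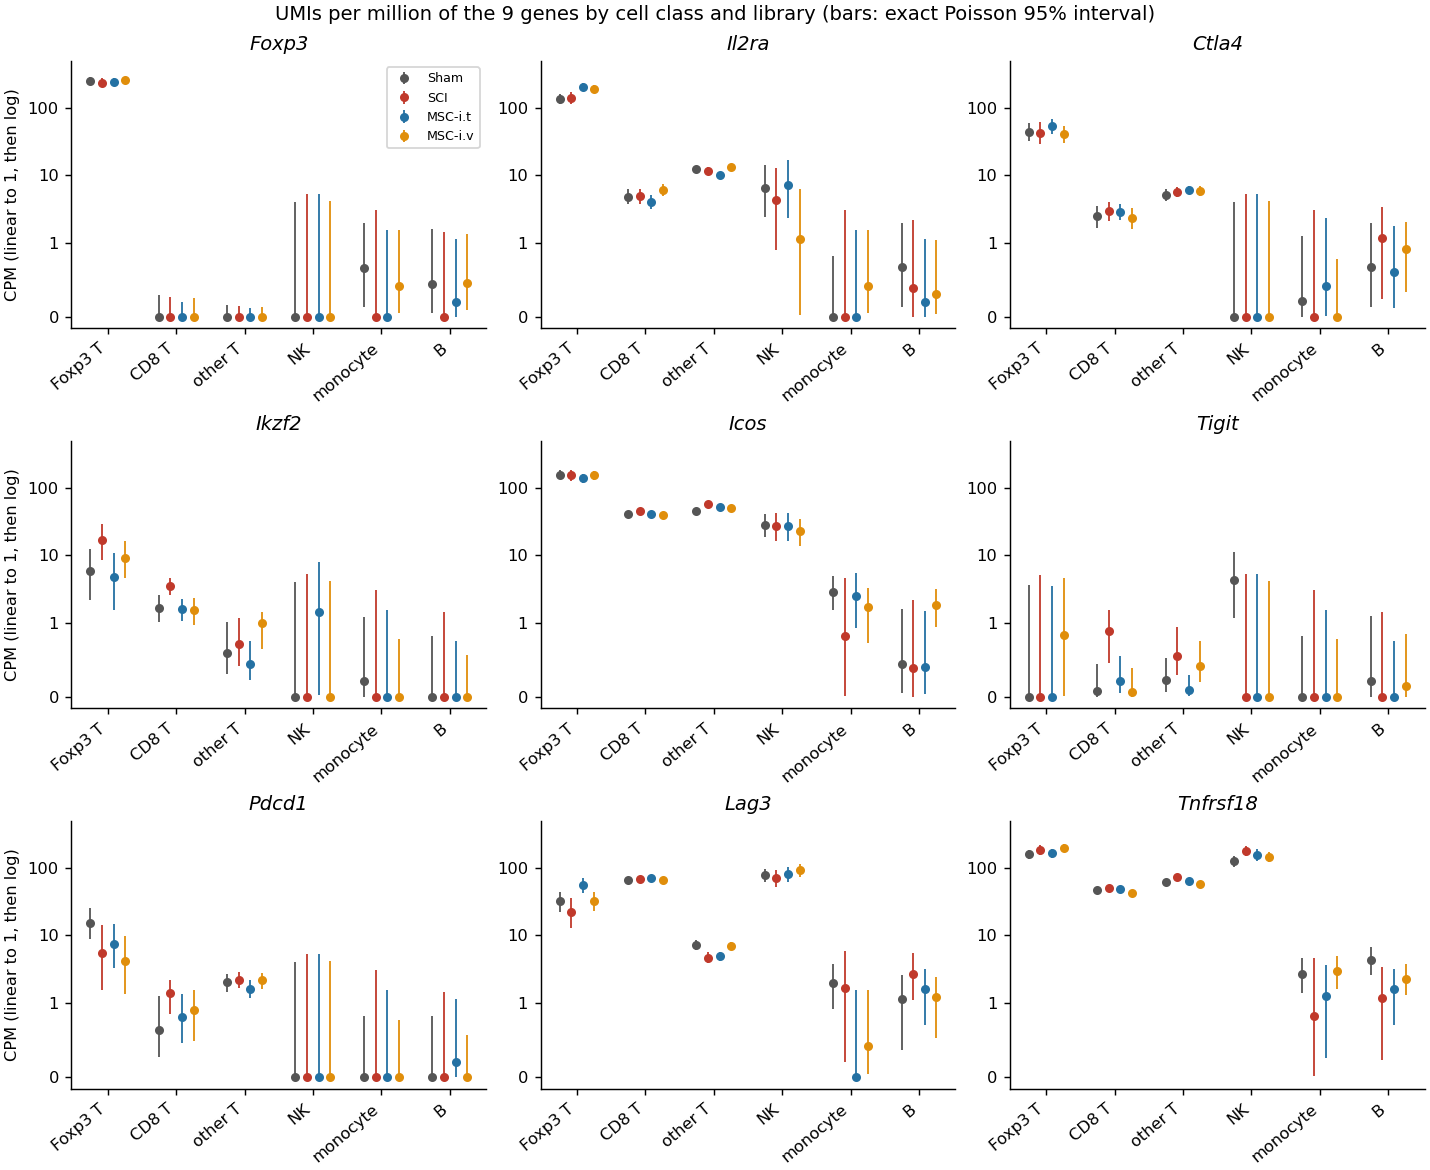
CPM of each of the 9 genes (y axis, linear up to 1 and logarithmic above) in 6 cell classes (x axis) and 4 libraries (colours), with exact Poisson 95% intervals. Il2ra, Ctla4, Icos and Tnfrsf18 are highest among T cells in Foxp3 T in each library, and Lag3 is high in CD8 T and NK.

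Il2ra marked Foxp3 T most strongly. It stood there at 136, 142, 208 and 194 CPM (140, 102, 221 and 234 UMIs), and in 39.9% to 47.2% of the cells. The MSC-i.t and MSC-i.v libraries were the higher pair, with MSC-i.t (interval 181 to 237) above both Sham and SCI and MSC-i.v (170 to 220.3) overlapping SCI (116 to 172). In other T it was 12.4, 11.7, 10.1 and 13.2 CPM. In CD8 T it was lower again, at 4.83, 4.91, 4.01 and 6.07 CPM, and NK held only 6, 3, 5 and 1 UMIs. Monocytes had 0 UMIs in 3 libraries and 2 in MSC-i.v. The order Foxp3 T, other T, CD8 T held without overlap of intervals in each library, while the few NK UMIs overlapped CD8 T. Foxp3 T, which hold 1.9% to 2.9% of all T cell UMIs, held 22.9% (SCI) to 37.4% (MSC-i.t) of the Il2ra UMIs.

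Ctla4, which competes with Cd28 for the ligands Cd80 and Cd86, followed the same order at lower counts. Foxp3 T had 44.5, 43.1, 53.6 and 40.6 CPM (46, 31, 57 and 49 UMIs). These overlap one another and lie far above other T, at 5.11, 5.62, 6.05 and 5.89 CPM. CD8 T had 2.45, 2.98, 2.87 and 2.30 CPM, and the NK sums held no Ctla4 UMI. Foxp3 T held 15.2% (SCI) to 24.3% (Sham) of the Ctla4 UMIs of T cells.

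Pdcd1, the receptor PD-1, was scarce in blood T cells, with 68 to 75 UMIs per library. Foxp3 T had 15.5 CPM in Sham from 16 UMIs, and 5.57, 7.52 and 4.14 CPM from 4, 8 and 5 UMIs in the 3 other libraries. Sham was the highest, with an interval (8.86 to 25.2) that overlaps those of the 3 others. Other T had 1.61 to 2.20 CPM and CD8 T 0.633 to 1.41. NK and monocytes held none.

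Tigit, which binds nectin family ligands, was near the limit of detection in each library. All T cells together gave 6, 25, 7 and 13 UMIs. SCI was the highest. Foxp3 T gave 0, 0, 0 and 1 UMI, which allows up to 2.90 CPM in Sham at the limit of 3 counts. The limit is higher in SCI, whose Foxp3 T held fewer UMIs in all. Foxp3 T hold 1.9% to 2.9% of all T cell UMIs, so these counts cannot show less Tigit there than in other T. CD8 T gave 1, 12, 4 and 1 UMIs, and 9 of the 12 in SCI came from the 114 CD8 T cells with at least 3 Nkg7 UMIs. NK gave 4 UMIs in Sham (4.36 CPM) and none in the other libraries.

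Lag3, which binds MHC class II, had its highest levels in CD8 T and NK. CD8 T had 67.2, 69.9, 70.4 and 66.1 CPM, with intervals that overlap throughout. NK had 78.4, 70.8, 81.6 and 93.3 CPM. In each library the NK and CD8 T intervals overlap except in MSC-i.v, where NK (74.2 to 116) lay above CD8 T (62.0 to 70.4). Other T had 4.65 to 7.21 CPM. Foxp3 T lay between, at 32.0, 22.3, 55.5 and 32.3 CPM, from 33, 16, 59 and 39 UMIs, up to 10 of which came from 1 cell. CD8 T held 81.0% to 88.2% of the Lag3 UMIs of T cells. Foxp3 T held 1.5% to 3.9%, beside 1.9% to 2.9% of the T cell UMIs of all genes. B cells were at 2.70 CPM or less, below the 10.8 to 20.3 CPM of free RNA (barcodes under 100 UMIs).

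Icos, a relative of Cd28, and Tnfrsf18, a receptor of the TNF receptor family, were found in all T cell classes and highest in Foxp3 T. Icos was 159, 154, 139 and 155 CPM in Foxp3 T. It was 46.4, 58.4, 52.2 and 50.9 CPM in other T, 41.1, 46.3, 40.9 and 39.9 in CD8 T, and 22.7 to 28.3 in NK. Other T and CD8 T were close, with overlapping intervals in Sham only. Tnfrsf18 was 161, 188, 166 and 203 CPM in Foxp3 T and 126, 182, 157 and 148 in NK, which overlap in 3 libraries and not in MSC-i.v. It was 62.2, 72.9, 64.5 and 59.0 CPM in other T and 48.2, 51.3, 49.1 and 42.4 in CD8 T. NK was thus low for Icos and high for Tnfrsf18. Both genes were at 4.24 CPM or less in B cells and monocytes.

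Ikzf2 had its highest CPM in Foxp3 T, from few UMIs, while most of its UMIs lay outside them. Foxp3 T had 5.81, 16.7, 4.70 and 9.11 CPM, from 6, 12, 5 and 11 UMIs, with intervals that overlap between libraries. In Sham and MSC-i.t these intervals also overlap those of CD8 T, and Foxp3 T were not tested against CD8 T. CD8 T had 1.66, 3.5, 1.57 and 1.53 CPM from 21, 47, 29 and 22 UMIs, and SCI was the highest. Its interval (2.57 to 4.65) lay above those of Sham (1.03 to 2.54), MSC-i.t (1.05 to 2.26) and MSC-i.v (0.961 to 2.32). Other T had 0.444 to 0.994 CPM. CD8 T held 52.5%, 61.8%, 61.7% and 37.3% of the Ikzf2 UMIs of T cells, other T 32.5%, 22.4%, 27.7% and 44.1%, and Foxp3 T 10.6% to 18.6%.

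**Figure D3:**
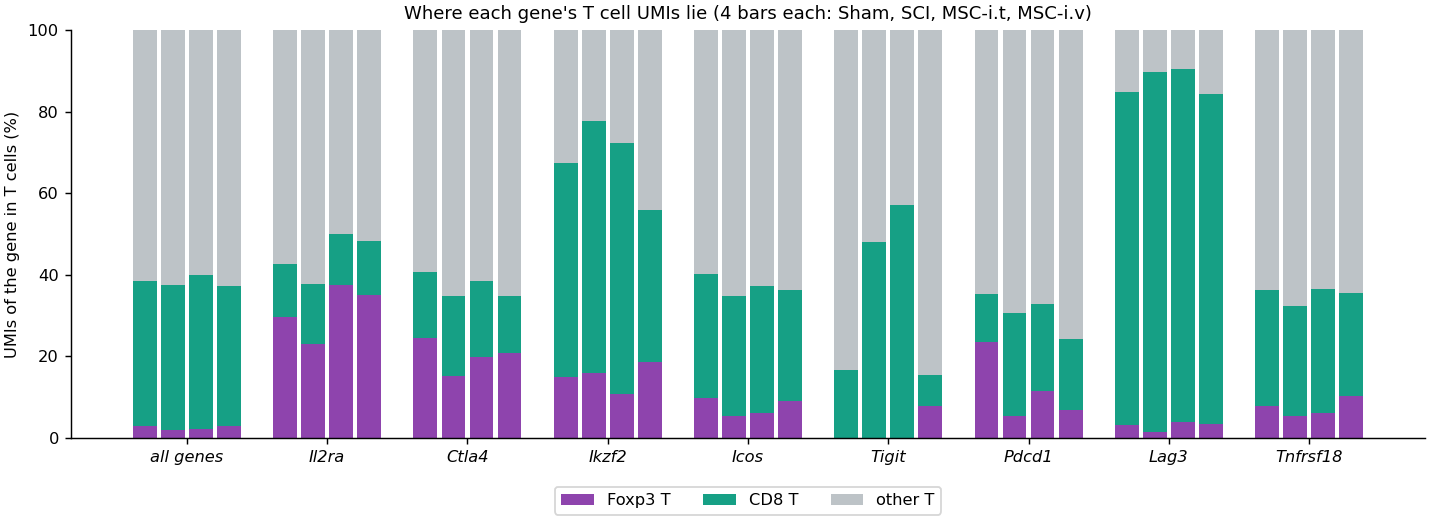
Percent of T cell UMIs (y axis) that lie in Foxp3 T, CD8 T and other T, for all genes and for 8 members (x axis), with 1 bar per library in the order Sham, SCI, MSC-i.t, MSC-i.v. Il2ra and Ctla4 have the largest Foxp3 T shares, up to 37.4% and 24.3%, and Lag3 lies at 81.0% or more in CD8 T. Tigit bars rest on 6 to 25 UMIs.

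Each library holds all T cell subsets, so differences between subsets could be tested with the 4 libraries as replicates. UMIs were summed per library and subset and tested with edgeR's quasi-likelihood test, with the library as a block and Benjamini-Hochberg adjustment over all genes tested. No source says that the libraries came from separate animals, so p-values measure only the spread between these 4 libraries.

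Of the other 8 genes, the 7 that passed the filter on low counts were higher in Foxp3 T than in other T. Tigit did not pass. A gene scarce in 1 subset can pass through the other subset alone, which favours 1 direction. Ikzf2, with 13, 17, 13 and 26 UMIs in other T, passed through Foxp3 T. Its call held in 18 of 18 alternatives, among them a test without the filter. The same filter applies to the other subset tests and to the lists below. Of 9783 genes tested, 959 (9.8%) were higher and 696 (7.11%) lower in Foxp3 T. Il2ra was higher by 3.66 on the log2 scale (SE 0.13, edgeR adjusted p = 6.32e-11) and Ikzf2 by 3.42 (SE 0.42, adjusted p = 4.16e-05). Ctla4 was higher by 2.81 (SE 0.17, adjusted p = 1.92e-08), Lag3 by 2.39 (SE 0.24, adjusted p = 5.75e-06) and Pdcd1 by 1.81 (SE 0.41, adjusted p = 0.00608). The co-stimulatory receptors had the smallest differences, Icos 1.37 (SE 0.08, adjusted p = 1.74e-08) and Tnfrsf18 1.29 (SE 0.08, adjusted p = 2.44e-08). All 7 were higher in 4 of 4 libraries. Without the Sham library Pdcd1 was 1.32 (adjusted p = 0.113) and the count of higher genes 616, and with Foxp3 T taken at 2 UMIs Pdcd1 was 1.25 (adjusted p = 0.281). Cells with Cd8 RNA are in Foxp3 T but not in other T by the gates. In Foxp3 T without them, Lag3 was 26.7, 18.0, 49.3 and 28.9 CPM, still above the 4.65 to 7.21 of other T.

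The genes with the largest differences included other receptors of regulatory T cells. Ccr3, a chemokine receptor best known from eosinophils, led with 5.15 (SE 0.40), at 22.3 to 33.9 CPM in Foxp3 T against 0.296 to 1.53 in other T. It was followed by Neb (4.82), Lrrc32 (4.53), which tethers latent TGF-beta to the cell surface, Gpr15 (3.97), a receptor for homing to the gut, Tnfrsf9 (3.97), C1qtnf6 (3.91), Stbd1 (3.91) and Tnfrsf4 (3.85). Tnfrsf9 (4-1BB) and Tnfrsf4 (OX40) are co-stimulatory relatives of Tnfrsf18. The 4 leading lower genes, Olah, Zfp623, Trim17 and Cttnbp2, had no UMI in Foxp3 T, so no fold is given. Olah was at 2.48 to 4.10 CPM in other T.

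A list of the regulatory T cell programme (20 genes, 15 tested) had 10 higher and 0 lower in Foxp3 T, with a median of 1.36 against -0.02 over all genes. Besides Lrrc32, Tnfrsf9 and Tnfrsf4 these were Capg (3.29), Prdm1 (2.81), Nrp1 (1.70), Socs2 (1.64), Rgs1 (1.36), Tnfrsf1b (1.05) and Batf (0.53). Entpd1 (CD39), which breaks down extracellular ATP, was 1.15 with an edgeR adjusted p of 0.15, and Itgae was -0.08. Of 11 tested genes of interleukin-2 signalling, 5 were higher and 3 lower (median 0.42): Il2rb, the beta chain of the receptor, was 3.25 higher at 127 to 197 CPM against 10.2 to 18.6, and Socs3 was lower at -1.68.

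Ligands of the members, checkpoint and co-stimulatory receptors alike, were also found in Foxp3 T. Of 6 tested, 3 were higher and 0 lower (median 0.95): Cd80 (3.51), Icoslg (2.20) and Cd86 (1.89). Cd80, a ligand of Ctla4 and Cd28, was 28.1, 27.8, 20.7 and 26.5 CPM in Foxp3 T and 1.61 to 2.56 in other T. Markers of monocytes, which can express Cd80 and Cd86, summed to 143 to 660 CPM in Foxp3 T and 362 to 1059 in other T, and their part in these values was not tested. Of 10 co-stimulatory receptors and ligands, 4 were higher and 3 lower (median -0.02), with Cd40lg, the helper signal to B cells, the lowest at -1.83. Of 8 other inhibitory receptors, Tox (0.72), a transcription factor on the same list, and Vsir (0.36) were higher and 0 were lower, with a median of -0.11.

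CD8 T had more Lag3 and Ikzf2 than other T and less of the 5 other testable genes. Of 10331 genes, 1699 (16.4%) were higher and 1748 (16.9%) lower in CD8 T. Lag3 was higher by 3.56 (SE 0.08, edgeR adjusted p = 5.46e-13) and Ikzf2 by 1.59 (SE 0.26, adjusted p = 0.000271). Il2ra was -1.23 (SE 0.08, adjusted p = 5.41e-08), Ctla4 -1.08 (SE 0.12, adjusted p = 8.41e-06) and Pdcd1 -1.04 (SE 0.21, adjusted p = 0.00167). Tnfrsf18 (-0.41, SE 0.03) and Icos (-0.28, SE 0.04) differed least. Each difference had 1 direction in 4 of 4 libraries.

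The leading CD8 T genes were Ccr9 (4.43), a homing receptor, Klrb1c (4.38), Uchl1 (4.33), Gria3 (4.31), Cxcl17 (4.28), Sh3bgr (4.28), Ccl4 (4.14) and Qrich2 (4.02), and the leading lower genes Izumo1r (-4.66), Kdr (-4.03), Igfbp4 (-3.44) and Maf (-3.24). The regulatory programme had 1 of 14 tested genes higher and 10 lower, with a median of -0.50 against -0.00 over all genes. Of 9 other inhibitory receptors 3 were higher, Cd244 (0.73), Cd96 (0.44) and Vsir (0.11), and 3 lower, Cd200r1 (-1.79), Btla (-0.89) and Tox (-0.59). Il2rb, the beta chain of the interleukin-2 receptor, was higher by 2.70, against the lower Il2ra.

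**Figure D4:**
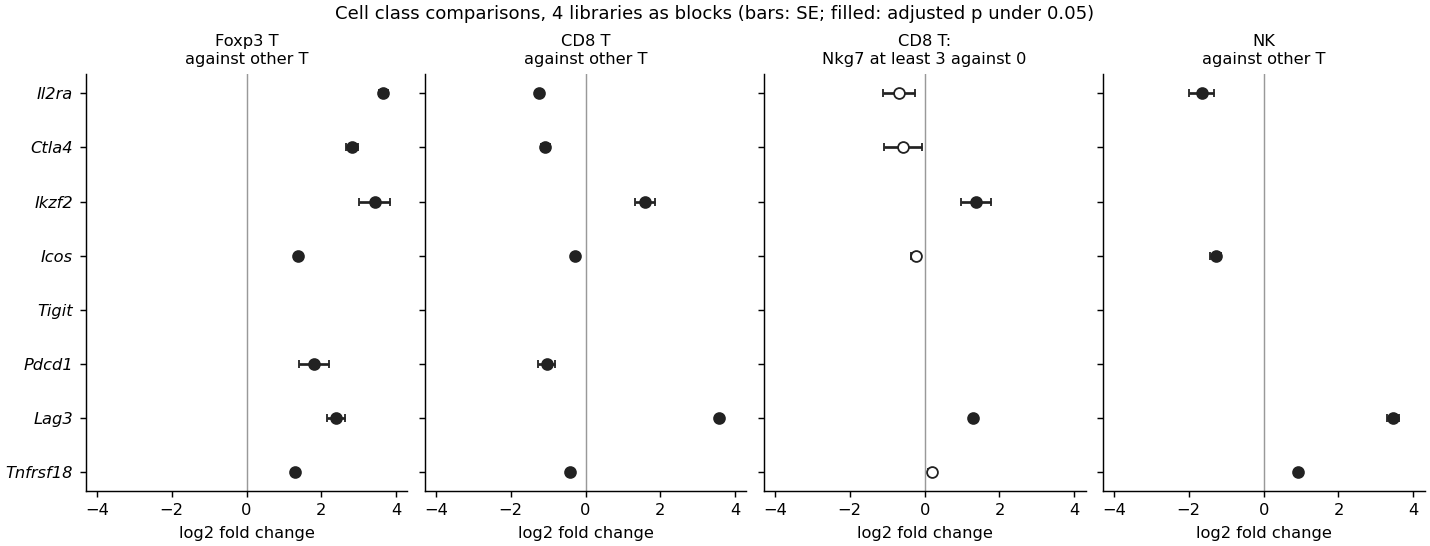
Log2 fold change with its standard error (x axis) of the members in 4 comparisons of cell subsets by edgeR over 4 libraries, filled where the adjusted p is under 0.05. Il2ra lies at 3.66 in Foxp3 T and -1.23 in CD8 T, and Lag3 is higher in Foxp3 T, CD8 T and NK than in other T.

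Finer subsets were compared after the values above had been seen. CD8 T with at least 3 Nkg7 UMIs, a gene of cytotoxic granules (109 to 197 cells per library), were compared with CD8 T without any (1432 to 2340 cells). Of 8850 genes, 825 (9.32%) were higher and 649 (7.33%) lower, led by Gzmb (8.02), Gzmk (7.62) and Gzma (7.52). Lag3 was 169, 162, 133 and 156 CPM in the Nkg7 cells against 53.3 to 58.8, a difference of 1.29 (SE 0.08, edgeR adjusted p = 2.19e-12). Lag3 was thus also present in CD8 T without Nkg7. Ikzf2 was 1.37 higher (SE 0.40, adjusted p = 0.0162), a call lost without MSC-i.t (1.13, adjusted p = 0.154), without the block (adjusted p = 0.108) and in DESeq2 (adjusted p = 0.0896). Tnfrsf18, Icos, Ctla4 and Il2ra did not pass the test, at 0.21, -0.23, -0.57 and -0.69.

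NK compared with other T had 1825 of 9909 genes higher (18.4%) and 1845 lower (18.6%). Lag3 was higher by 3.46 (edgeR adjusted p = 6.63e-22) and Tnfrsf18 by 0.92 (adjusted p = 3.91e-12), while Icos was -1.28 (adjusted p = 3.08e-10) and Il2ra -1.65 (adjusted p = 9.3e-05). Ctla4 and Pdcd1 had no UMI in NK.

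Foxp3 T varied among themselves, described here without tests. In the 15 to 34 cells per library that also passed the Cd8 gate, Lag3 was 52.3, 45.9, 72.0 and 58.6 CPM, above the values of the remaining Foxp3 T in each library. Foxp3 T as a whole gave only 33, 16, 59 and 39 Lag3 UMIs, so these Lag3 values rest on few. Icos was lower in the cells that passed the Cd8 gate, at 42.8, 110, 103 and 125 CPM against 188, 162, 153 and 159. Il2ra did not keep 1 direction, at 143, 129, 261 and 191 CPM against 134, 144, 188 and 194. Cells with 2 or more Foxp3 UMIs had more Il2ra than cells with 1 in each library, at 181, 160, 254 and 241 CPM against 108, 128, 169 and 169. Tnfrsf18 was 174, 218, 184 and 286 CPM in the former against 153, 165, 150 and 159. Lag3 was higher in the former in Sham, SCI and MSC-i.v and lower in MSC-i.t (36.8 against 71.4 CPM).

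Other T with at least 2 Il2ra UMIs, 35 to 42 cells per library, had more of 3 further members than other T without Il2ra, described without a test. Ctla4 was 20.6, 17.9, 34.1 and 20.2 CPM in them against 4.62 to 5.64 in other T with no Il2ra UMI. Icos was 91.0 to 116 CPM against 46.0 to 56.2, and Tnfrsf18 96.6 to 187 against 56.4 to 71.7. The CPM values of Ctla4 and Icos in them were under the range of Foxp3 T. With so few cells the Ctla4 values rest on few UMIs, and no intervals are given, so a difference from Foxp3 T is not shown.

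RNA of dividing cells was found in a larger share of Foxp3 T than of other T in each library. At least 2 UMIs of Mki67 and Top2a, which mark cell division, were found in 8 of 163 Foxp3 T in Sham (4.91%, 95% interval 2.14 to 9.44), 6 of 100 in SCI (6%, 2.23 to 12.6), 2 of 159 in MSC-i.t (1.26%, 0.153 to 4.47) and 12 of 226 in MSC-i.v (5.31%, 2.77 to 9.09). Other T had 0.503% to 0.683% and CD8 T 0.700% to 0.813%. The Foxp3 T intervals lay above these shares except in MSC-i.t, where it included them. Depth was not matched in these shares.

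Between libraries, a gene was counted as different at 1.5-fold or more with a 95% interval off 0, among genes with at least 20 UMIs in the pair. Over all T cells 3 of the 9 genes differed between SCI and Sham, against 16.3% of all 11143 genes: Foxp3 was lower in SCI (log2 -0.70, interval -0.98 to -0.41), and Ikzf2 (0.84, 0.27 to 1.43) and Tigit (1.97, 0.65 to 3.55) were higher. Ikzf2 was 0.57 (-0.03 to 1.19) without barcodes that carry markers of other cells and 0.54 (-0.51 to 1.62) thinned, and Tigit thinned was 1.89 (-0.49 to 5.20), so these calls were lost there. MSC-i.t over SCI had 2 (background 14.5%), Ikzf2 at -1.06 (-1.62 to -0.52) and Tigit at -2.20 (-3.66 to -0.95). MSC-i.v over SCI had 2 (background 17.5%), Foxp3 at 0.73 (0.45 to 1.00) and Tigit at -1.09 (-2.18 to -0.06). These 3 pairs share the SCI library, which differs from the others across the genome. Over all T cells, pairs without SCI had 0 of 8 in MSC-i.t over Sham (background 5.54%) and in MSC-i.v over Sham (4.12%), where Tigit had too few UMIs to be counted, and 0 of 9 in MSC-i.v over MSC-i.t (7.32%). Without barcodes that carry markers of other cells, 1 of the members differed in MSC-i.t over Sham and 2 in MSC-i.v over MSC-i.t. No share of all genes was computed for that setting. In the main setting, Ctla4 and Pdcd1 differed in none of the 6 pairs over all T cells.

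Within Foxp3 T, whose gate largely sets the level, Foxp3 ratios lay between -0.08 and 0.12. Ikzf2 differed between SCI and the 3 other libraries in CD8 T, where SCI over Sham was 1.07 (0.30 to 1.89, background 13.6%), MSC-i.t over SCI -1.15 (-1.87 to -0.45, background 13.2%) and MSC-i.v over SCI -1.19 (-1.99 to -0.43, background 16.1%). Over all T cells MSC-i.v over SCI was -0.51 for Ikzf2 (-1.02 to 0.00264), which was not counted as different. A pair without SCI differed too: MSC-i.v over MSC-i.t was 1.16 for Ikzf2 in other T (0.15 to 2.24, background 7.21%) and 0.60 for Il2ra in CD8 T (0.13 to 1.06, background 7.5%). Lag3 in other T was lower in SCI than in Sham (-0.63, -1.0 to -0.27, background 15.9%) and higher in MSC-i.v than in SCI (0.59, 0.24 to 0.94, background 17.6%). Lag3 in CD8 T, which hold most of it, differed in none of the 6 pairs (backgrounds as above for pairs with SCI, and without it 4.13% in MSC-i.t over Sham, 3.93% in MSC-i.v over Sham, 7.5% in MSC-i.v over MSC-i.t).

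Within Foxp3 T, 0 of the 7 members with enough UMIs differed between SCI and Sham, where 12.5% of all genes did. With so few members, 0 is near that share. MSC-i.t stood out for Lag3, at 1.32 over SCI (0.50 to 2.21, background 14.1%) and 0.80 over Sham (0.16 to 1.46, background 5.48%), with MSC-i.v over MSC-i.t at -0.78 (-1.40 to -0.17, background 8.65%). The Cd8 sum in these cells was also highest in MSC-i.t, at 295 CPM against 206 in Sham, 132 in SCI and 120.1 in MSC-i.v. MSC-i.v had the lowest Cd8 sum but not the lowest Lag3. In Foxp3 T without cells that passed the Cd8 gate, Lag3 was also highest in MSC-i.t. The part of Cd8 cells in the result was not tested. With 2 Foxp3 UMIs required, Lag3 over Sham was -0.69 in MSC-i.t, the opposite direction. Without T barcodes over 2.5 times the median UMIs, none of these Lag3 calls held. MSC-i.t was then 0.88 over SCI (-0.004 to 1.85) and 0.73 over Sham (-0.03 to 1.53). MSC-i.v over MSC-i.t was -0.29 (-0.98 to 0.40). Without barcodes under 1% mitochondrial, the calls of MSC-i.t over Sham and MSC-i.v over MSC-i.t were lost. Il2ra was 0.62 higher in MSC-i.t than in Sham (0.30 to 0.93), but under the 1.5-fold limit at 2 Foxp3 UMIs (0.48, 0.05 to 0.93) and without cycling T cells (0.58, 0.26 to 0.90). MSC-i.v over Sham was 0.52 (0.21 to 0.83), under the 1.5-fold limit. Pdcd1 was lower in MSC-i.v than in Sham (-1.90, -3.71 to -0.39, background 6.15%) from 5 and 16 UMIs, and was -0.30 without barcodes that carry markers of other cells.

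**Figure D5:**
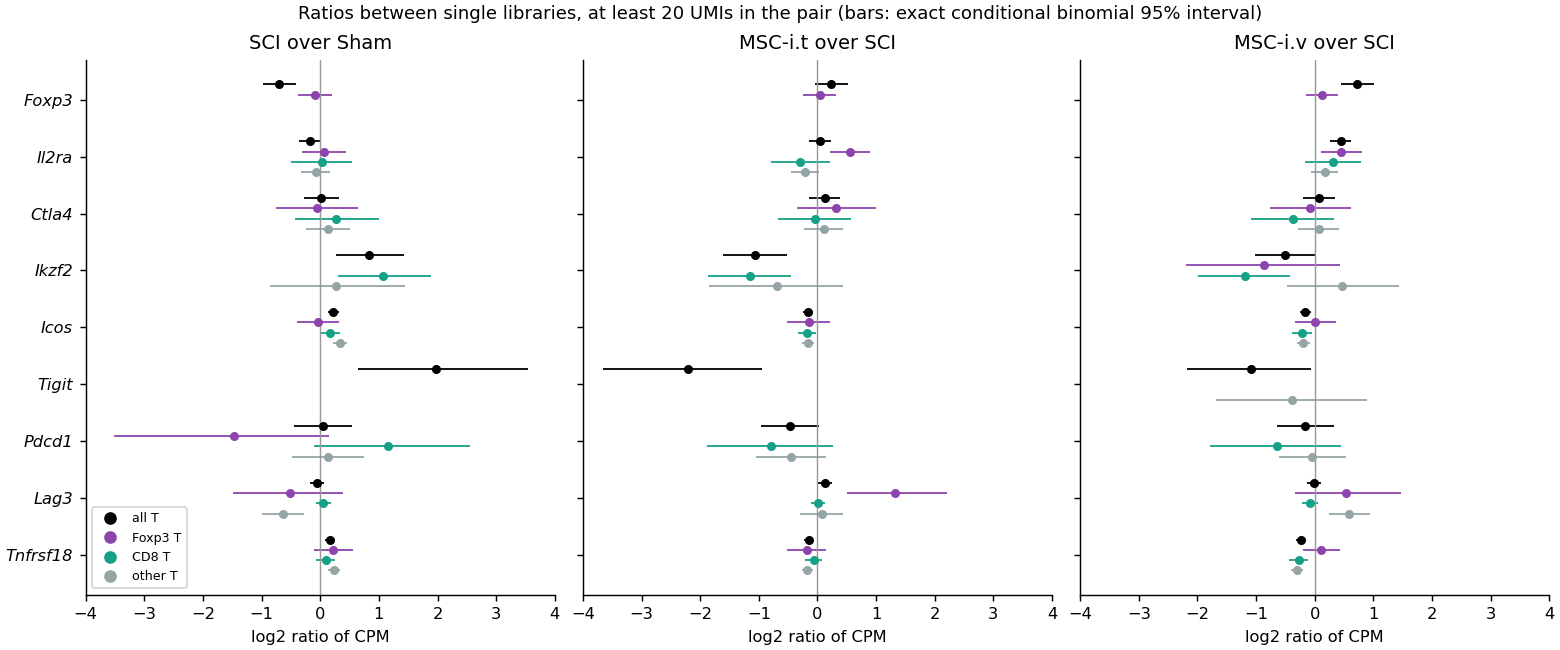
Log2 ratio of CPM with exact conditional 95% intervals (x axis) for members with at least 20 UMIs in the pair, for SCI over Sham, MSC-i.t over SCI and MSC-i.v over SCI, in all T, Foxp3 T, CD8 T and other T. Foxp3 over all T is -0.70 in SCI over Sham and 0.73 in MSC-i.v over SCI, and Ctla4 intervals include 0.

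The patterns of the members over 7 cell classes and 4 libraries were compared with those of 9723 genes by Pearson's r over 28 values, which share libraries and classes and are a description. The gate leaves Foxp3 out of CD8 T and other T, so its likeness to Ccr3 (0.97) largely restates that split. Il2ra was most like Crmp1 (0.95), Ctla4 and Pdcd1 like each other (0.96), Ikzf2 like Gpr15 (0.92), and Tigit like Map7 (0.78). Lag3 was most like Cpne7 (0.97) and Cxcr3 (0.97), Icos like Gata3 (0.97) and Cd28 (0.96), and Tnfrsf18 like Gata3 (0.98) and Tnfrsf25 (0.98).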

How the data were processed

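Gene counts (UMIs) were deposited as unfiltered matrices of 25340 genes and 6794880 barcodes per library, made with Cell Ranger 4 per the file headers, on build mRatBN7.2 per the submitters' processing notes. The libraries held 63133881 to 91124523 UMIs. The labels' extraction protocol describes a bulk preparation, which these matrices are not. Barcodes with 500 UMIs and 200 genes were kept and gated by UMIs, with no doublet caller: alternatives left out barcodes with markers of other cells or over 2.5 times the median UMIs. Levels are CPM with exact Poisson 95% intervals, ratios have exact conditional binomial intervals, and a count of 0 allows 3 counts. Intervals cover counting error only. Subsets were tested with edgeR 4.0.16 (R 4.3.3; TMM, filterByExpr, library as block, Benjamini-Hochberg, threshold 0.05), with DESeq2 1.42.0 as an alternative, after the code was tested on simulated data. All 9 members are named; of the tests, the 8 highest and 4 lowest genes that passed in the same direction in 4 libraries with at least 40 UMIs, and of the lists the highest and lowest members. The members and lists were chosen with earlier results of these data known. The Nkg7 and NK tests, and alternatives without cycling cells or cells under 1% mitochondrial UMIs, were added after seeing the data. Marker symbols Trac, Trbc2, Cd5, Klrb1b, Itgam, Ighm and Hba-a1 and the ligand Pvr were not matched. A further comparison within other T, and the counts of 1 gene list, are not reported here.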

Additional observations from a re-analysis of the deposited data

Results flagged for a closer look

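In 6 cases the ratio between 2 libraries had intervals on opposite sides of 0 in 2 T cell subsets. The differences were not tested, since each group is 1 library. The search covered the members only, and the share of all genes with such opposed intervals was not computed. For MSC-i.t over Sham, Il2ra was 0.62 in Foxp3 T and -0.29 in other T, 0.91 apart on the log2 scale. In the same pair Lag3 was 0.80 in Foxp3 T and -0.56 in other T, 1.36 apart. For MSC-i.v over MSC-i.t, Lag3 was 0.52 in other T and -0.78 in Foxp3 T, 1.30 apart. Tnfrsf18 was 0.34 in Foxp3 T and -0.18 in CD8 T for MSC-i.v over Sham, 0.52 apart. For MSC-i.v over MSC-i.t it was 0.29 in Foxp3 T against -0.21 in CD8 T, 0.51 apart, and against -0.13 in other T, 0.42 apart.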

How the results depend on the processing

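With 1 library per group no depth adds a replicate, and Tigit, Pdcd1 and Ikzf2 rest on few UMIs. The library block pairs the subsets of 1 library. Without the replicate block, Foxp3 T had 388 lower genes, CD8 T 581 higher with 512 lower and Nkg7 CD8 T 320 lower. With DESeq2, Foxp3 T had 461 lower, CD8 T 884 higher and 921 lower, and Nkg7 CD8 T 373 lower. Leaving out each library gave 616 to 863 higher genes in Foxp3 T. At 2 Foxp3 UMIs 576 genes were higher in Foxp3 T. Foxp3 shares were 0.982%, 0.662%, 0.856% and 0.709% at 2 Foxp3 UMIs and 1.39%, 0.791%, 1.03% and 1.35% thinned (Sham, SCI, MSC-i.t, MSC-i.v). At 2 UMIs the log2 share ratio was 0.10 for MSC-i.v over SCI, -0.47 over Sham and -0.27 over MSC-i.t. Lag3 in Foxp3 T then turned to -0.69 (MSC-i.t over Sham) from 0.80, with 0.048 in MSC-i.v over MSC-i.t from -0.78. Over 11 alternatives, the Lag3 call in Foxp3 T held in 8 for each of these pairs and in 9 for MSC-i.t over SCI. Thinned, 1, 0 and 1 members differed over all T in SCI over Sham, MSC-i.t over SCI and MSC-i.v over SCI, the calls of Ikzf2 and Tigit being lost. Tigit in MSC-i.v over SCI was also lost without barcodes with markers of other cells (-0.99). Lag3 in other T went under the 1.5-fold limit in 2 of 11 alternatives for SCI over Sham (nearest to 0, -0.57) and in 3 of 11 for MSC-i.v over SCI (0.56), as Il2ra in CD8 T did in 3 of 11 for MSC-i.v over MSC-i.t (0.51). Without barcodes with markers of other cells, 1 differed in MSC-i.t over Sham and 2 in MSC-i.v over MSC-i.t. No share of all genes was computed for this setting or for thinned cells, so these counts have no background. Without hemoglobin, mitochondrial and ribosomal genes in the total, which makes every total smaller, 0 of 105 levels in T subsets and 0 of 10 in NK and monocytes stayed inside their intervals; thinned, 19 of 33 over all T did. Among the 9 alternatives that could move it, Foxp3 over all T stayed past the limit in 9, both for SCI over Sham (-0.92 to -0.67) and MSC-i.v over SCI (0.67 to 0.92).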
